A study of Mus musculus with 36 samples.

Results

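The comparison described here asks in which genotype adding BtdCPU to thapsigargin changed transcript levels differently. It was formed from 12 of 36 RNA-seq libraries of mouse embryonic fibroblasts (MEF), as the change from thapsigargin to BtdCPU plus thapsigargin in PERK -/- cells minus the same change in WT cells. The 4 groups of 3 libraries were PERK -/- cells with thapsigargin, PERK -/- cells with BtdCPU plus thapsigargin, WT cells with thapsigargin and WT cells with BtdCPU plus thapsigargin. All 12 libraries therefore came from cells that received thapsigargin (abbreviated Tg). PERK -/- and WT groups with DMSO, the solvent, with BtdCPU alone and with halofuginone plus thapsigargin are used for reference, again with 3 libraries each. Of 36856 gene symbols, 16065 had enough counts to be tested.

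The labels name 1 cell line entry, MEF, for both genotypes. They give no dose, treatment time, clone or embryo of origin, and they do not say whether replicates were separate cultures, so p-values measure only the spread between these libraries. The labels do not say whether the genotypes are single clones or separately derived lines, so an effect of genotype and one of line cannot be told apart here.

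PERK is a kinase of the endoplasmic reticulum (ER) membrane. When unfolded proteins accumulate in the ER, it phosphorylates eIF2 alpha, which lowers most translation but favours that of ATF4, and ATF4 then raises genes of amino acid supply, tRNA charging and stress adaptation, together called the integrated stress response (ISR). Thapsigargin empties the calcium store of the ER by blocking its calcium pump and so causes ER stress. BtdCPU activates HRI, another eIF2 alpha kinase, and halofuginone activates a further one, GCN2.

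Library totals ran from 33509674 to 37178107 counts in the 12 libraries. Eif2ak3, the gene of PERK, lay between 17.8 and 31.2 CPM (counts scaled to library size) in the 6 PERK -/- libraries and between 72.7 and 104 CPM in the 6 WT libraries, so no library went against its genotype label. Its response to BtdCPU did not differ between the genotypes past the threshold (log2 difference -0.16, SE 0.251, edgeR adjusted p = 0.71), and its change of -0.4 in PERK -/- cells was called only with the replicate block. Of 7 fibroblast markers, Vim, Thy1, Pdgfra, Pdgfrb and S100a4 were above 35 CPM in every library, while Lum reached at most 2.6 CPM and Fap at most 1.21 CPM. The responses of 2 of the 7, Pdgfra (-0.75) and Pdgfrb (-0.58), differed between the genotypes, as did those of 20.8% of all tested genes. Endothelial, muscle and neuronal markers each stayed at or below 1.44 CPM and epithelial ones at or below 2.48 CPM, and Ptprc, the defining leukocyte marker, was at most 0.168 CPM. The summed macrophage markers stood at 11.6 to 23.2 CPM in PERK -/- libraries and at 4.17 to 6 CPM in WT libraries, mostly through Csf1r, and their part in the results was not tested. In bulk RNA, fewer cells of a type and less RNA per cell cannot be told apart.

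BtdCPU on top of thapsigargin changed 5723 genes in PERK -/- cells (35.6% of those tested), of which 2783 rose (17.3%) and 2940 fell (18.3%). In WT cells it changed 372 genes (2.32%), of which 208 rose (1.29%) and 164 fell (1.02%). The difference between the 2 responses passed an edgeR adjusted p of 0.05 for 3343 genes (20.8%), 1726 with a positive difference (10.7%) and 1617 with a negative one (10.1%). This fit did not pair libraries by replicate number. With the replicate number as a block, 4989 genes passed, 2464 positive and 2525 negative. Leaving out 1 of the 12 libraries gave 1465 to 1873 positive and 1096 to 1539 negative genes. List counts from such fits, given below, are to be read beside these totals. A positive difference means a larger rise or a smaller fall in PERK -/- cells. The median standard error was 0.172 on the log2 scale in PERK -/- cells and 0.176 in WT cells. Both come from 1 fit with a shared spread per gene, so they do not compare the noise of the genotypes. The SD of log2 deviations from the group mean was 0.0949 to 0.141 in the PERK -/- libraries and 0.125 to 0.208 in the WT libraries. In fits on the compared libraries alone, 7194 genes were called in PERK -/- cells and 23 in WT cells. The part of this spread in the numbers of called genes was not tested. When libraries were scaled by their totals alone, the median of all differences moved from -0.05 to -0.13 and the share of positive ones among the called genes moved from 51.6% to 41.4%. With that scaling, 80.7% of the genes called in WT cells were rises, against 55.9% here.

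Leaving out the 61 ISR targets, 3288 of the 16004 other genes differed between the genotypes, 1671 with a positive and 1617 with a negative difference. Of these 3288 genes, 2835 (86.2%) passed the threshold in PERK -/- cells alone and 89 (2.71%) in WT cells alone. A further 51 genes (1.55%) passed it in both genotypes in opposite directions and 19 (0.578%) in both in the same direction. The remaining 294 genes (8.94%) passed it in neither, so that only the difference itself was called. Judged by size instead of by thresholds, 2471 genes (75.2%) changed at least 2 times as much, on the log2 scale, in PERK -/- cells as in WT cells, 163 (4.96%) did the reverse, and 654 (19.9%) lay between.

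The 3 small classes that need a call in WT cells depended on the fit. With the replicate number as a block, 2079 genes changed in WT cells and 424 of 4933 called genes (8.6%) were carried by WT cells alone, 388 (7.87%) were called in both genotypes in opposite directions and 150 (3.04%) in both in the same direction, while 3661 (74.2%) were carried by PERK -/- cells alone. The opposite and same-direction classes held 130 and 65 genes without the filter on low counts and 112 and 38 with DESeq2. Without replicate 3 of WT BtdCPU plus Tg only 41 genes were called in WT cells, 11 were carried by WT cells alone, and the opposite and same-direction classes held 5 each. Without replicate 1 or replicate 3 of WT Tg the WT calls numbered 68 and 169, those carried by WT cells alone 20 and 48, the opposite class 7 and 16, and the same-direction class 6 in both.

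**Figure D1:**
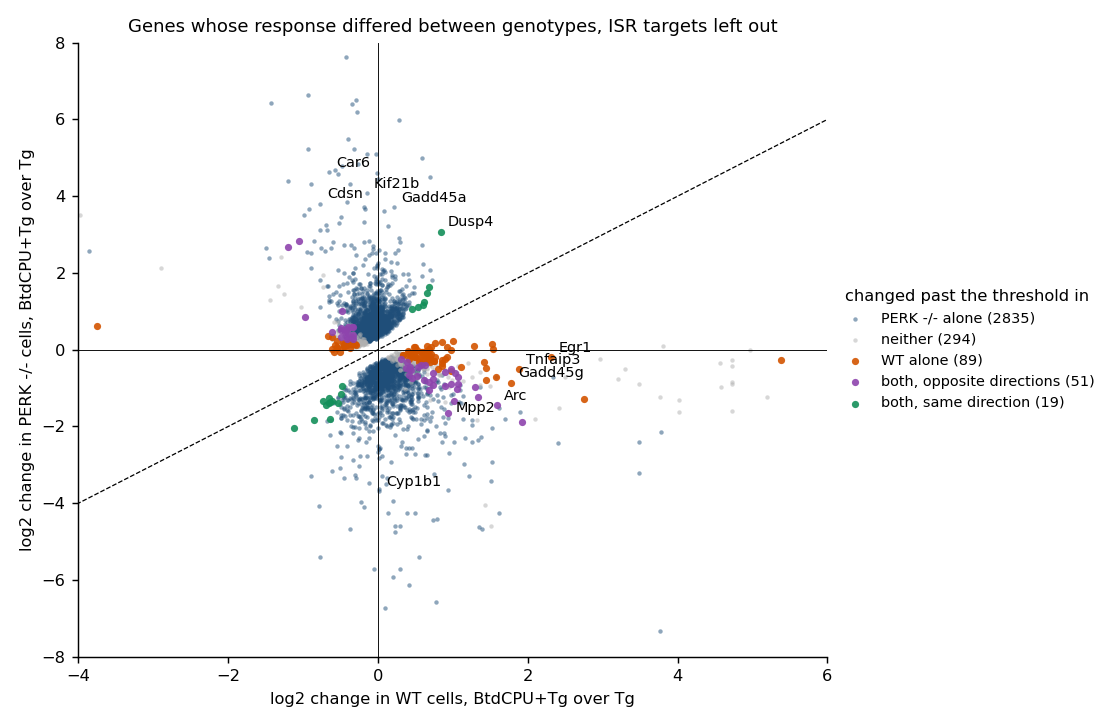
Each point is 1 of 3288 genes outside the ISR list whose response to BtdCPU differed between the genotypes. The x axis gives the log2 change from Tg to BtdCPU+Tg in WT cells and the y axis that in PERK -/- cells, colours give the genotype in which the change passed the threshold, and the dashed line marks equal change. Most points lie along the vertical axis, with 2835 genes changed in PERK -/- cells alone, and the 89 genes changed in WT cells alone lie along the horizontal axis.

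The positive differences with the greatest size outside the ISR list were genes that were low in PERK -/- cells under thapsigargin and rose with BtdCPU. The list holds 61 targets, and absence from it does not show that a gene is independent of the ISR. Car6, a secreted carbonic anhydrase, stood at 0.488, 1.15 and 0.854 CPM with Tg and at 16.1, 15.2 and 30.2 CPM with BtdCPU added in PERK -/- cells. In WT cells it stood at 14.9, 13.4 and 11.8 CPM with Tg and at 10, 9.8 and 5.43 CPM with BtdCPU added. The PERK -/- groups did not overlap, the WT libraries with BtdCPU were the lower ones, and the log2 difference was 5.29 (SE 0.633, edgeR adjusted p = 3.74e-07). Genes named by the rule given under processing had to have no overlap in the genotype with the larger change. Such a separation, for Car6 and the genes below, is therefore a condition of naming and adds no support. Cdsn, a cell adhesion protein of cornified skin, went from 7.99, 8.07 and 10.1 CPM to 94.4, 94.8 and 175 CPM in PERK -/- cells. Its WT libraries held 20.9 to 28.1 CPM with Tg and 12 to 18.2 CPM with BtdCPU, so with BtdCPU every PERK -/- library exceeded every WT library. The log2 difference of Cdsn was 4.57 (SE 0.446, edgeR adjusted p = 1.2e-08), and its fall in WT cells of -0.77 missed the threshold.

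Gadd45a, a stress-induced regulator of growth arrest, rose in PERK -/- cells from 14.5, 18.6 and 14.4 CPM to 209, 210 and 207 CPM. WT cells already held 250, 239 and 190 CPM with Tg and 254, 254 and 284 CPM with BtdCPU added. BtdCPU thus brought the PERK -/- libraries into the range of the WT libraries with Tg, and the log2 difference was 3.5 (SE 0.307, edgeR adjusted p = 1.7e-09). In DMSO the gene averaged 8.42 CPM in PERK -/- and 7.96 CPM in WT cells. Kif21b, a kinesin motor, also rose in PERK -/- cells alone, from 1.35, 1.77 and 2.27 CPM to 26.8, 23.4 and 41.4 CPM, but remained below the 141 to 196 CPM of the WT libraries. Hhipl1 behaved likewise, with 0.655 to 1 CPM before and 7.76 to 9.81 CPM after BtdCPU in PERK -/- cells against 30.2 to 41.3 CPM in WT cells. Fibin, a secreted protein, rose from 0.736 to 1.15 CPM to 5.06 to 5.94 CPM in PERK -/- cells, and its WT change of -0.71 passed the threshold only with the replicate block or without the filter on low counts.

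Angptl6, a secreted angiopoietin-like factor, and Avil, an actin-binding protein of the villin family, moved in opposite directions in the genotypes. Angptl6 rose from 3.44, 3.87 and 2.11 CPM to 20.1, 20.4 and 27 CPM in PERK -/- cells and fell from 15.8, 13 and 13.3 CPM to 6.52, 8.28 and 5.59 CPM in WT cells. Avil rose from 2.11, 3.05 and 3.55 CPM to 16.1, 14.8 and 25.1 CPM in PERK -/- cells and fell from 20.3, 17.4 and 17.1 CPM to 9.07, 11.1 and 3.77 CPM in WT cells. For both genes the order of the genotypes reversed: WT was higher with Tg and PERK -/- higher with BtdCPU added. The log2 difference was 3.89 (SE 0.4) for Angptl6 and 3.88 (SE 0.471) for Avil, with edgeR adjusted p = 2.95e-08 and 4.77e-07. The WT falls were called at edgeR adjusted p = 0.0364 and 0.0416, and each call was lost without replicate 1 or 3 of WT BtdCPU plus Tg or without any 1 of the WT Tg libraries.

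Promoter letters were searched in RefSeq sequence (GRCm38.p6), 250 bases upstream of each start, for the core TGATGNAA of the C/EBP-ATF response element through which ATF4 acts, on both strands. The core occurred in 3.45% of all 32851 RefSeq promoters. By gene it occurred in 29.2% of 48 ISR targets, in 2.67% of 11158 tested genes, in 2.58% of 1238 genes with a positive difference outside the ISR list and in 2.8% of 1178 with a negative one. AP-1, CRE, sterol, xenobiotic and CArG letters were searched in every list in the same way. The highest share of all was that of the AP-1 letters TGANTCA, in 43.8% of 16 chemokine and NF-kB genes against 6.31% of tested genes. It was picked after the shares were seen. AP-1 letters also occurred in 23.8% of 21 interferon-stimulated genes, in 21.4% of 14 NRF2 targets and in 0% of 31 mitosis genes. The sterol letters occurred in 3.7% of 27 sterol and fatty acid synthesis genes, against 1.24% of tested genes. A match describes the letters only. The 4 promoters below were chosen after the matches were seen, to show what the searched letters look like in genes described here. Avil was called in both genotypes in opposite directions, the ISR hormone gene Fgf21 in PERK -/- cells alone, and Gadd45g and Tnfaip3 in WT cells alone. The searched windows of Car6, Cdsn, Angptl6, Hhipl1, Gadd45a, Fibin, Ppp1r15a and Ddit3 held no TGATGNAA match. Capitals mark the TGATGNAA core in the first 3 sequences, read on the given strand in Avil and on the opposite strand in the others, and the AP-1 letters in Tnfaip3.
Avil, chr10:127000459-127000708, plus strand: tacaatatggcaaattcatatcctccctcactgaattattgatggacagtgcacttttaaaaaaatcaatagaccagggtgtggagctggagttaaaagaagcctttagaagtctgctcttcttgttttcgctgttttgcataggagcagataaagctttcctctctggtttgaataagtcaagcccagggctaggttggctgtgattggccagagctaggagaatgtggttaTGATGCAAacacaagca
Fgf21, chr7:45615491-45615740, minus strand: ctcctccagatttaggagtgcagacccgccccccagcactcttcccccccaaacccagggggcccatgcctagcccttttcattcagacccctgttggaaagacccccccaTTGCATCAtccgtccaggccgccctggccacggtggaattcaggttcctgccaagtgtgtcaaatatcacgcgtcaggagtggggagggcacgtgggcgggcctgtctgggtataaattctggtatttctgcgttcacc
Gadd45g, chr13:51846425-51846674, plus strand: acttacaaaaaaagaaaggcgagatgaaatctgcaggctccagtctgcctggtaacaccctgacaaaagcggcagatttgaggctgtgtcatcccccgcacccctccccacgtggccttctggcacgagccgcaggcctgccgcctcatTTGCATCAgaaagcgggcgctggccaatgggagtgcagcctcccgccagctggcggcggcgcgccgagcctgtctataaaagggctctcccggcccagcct
Tnfaip3, chr10:19015411-19015660, minus strand: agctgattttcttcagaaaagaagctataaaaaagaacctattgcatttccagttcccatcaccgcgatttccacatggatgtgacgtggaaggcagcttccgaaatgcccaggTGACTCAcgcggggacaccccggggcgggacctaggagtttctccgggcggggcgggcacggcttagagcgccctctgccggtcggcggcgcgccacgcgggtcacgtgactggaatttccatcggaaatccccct
The matches began 17, 139, 101 and 136 bases before the start in Avil, Fgf21, Gadd45g and Tnfaip3. Tnfaip3 has a second promoter entry, with a TGATGNAA match 22 bases before its start.

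Most negative differences of great size were falls in PERK -/- cells. Cyp1b1, a cytochrome P450 that the aryl hydrocarbon receptor induces, fell in PERK -/- cells from 23.5, 19.6 and 22.7 CPM to 1.69, 2.21 and 1.22 CPM. In WT cells it stood at 15, 18 and 15.3 CPM with Tg and at 15.2, 15.3 and 18.5 CPM with BtdCPU added. The PERK -/- groups lay far apart while the WT groups overlapped, and the log2 difference was -3.7 (SE 0.286, edgeR adjusted p = 1.65e-10). Mrgprf, an orphan G protein-coupled receptor, fell from 50.4, 44.3 and 58.7 CPM to 8.13, 8.71 and 8.75 CPM in PERK -/- cells and lay between 0.971 and 2.59 CPM in all WT libraries. Mpp2, a membrane scaffold protein, fell from 18.2 to 23 CPM to 5.22 to 7.22 CPM in PERK -/- cells, against 0.722 to 2.51 CPM in WT cells, where the rise of 0.94 was called only without the filter on low counts. For both genes PERK -/- cells remained above WT cells after the fall.

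Arc and Amigo2 fell in PERK -/- cells and rose in WT cells. Arc, an activity-regulated cytoskeletal protein, went from 2.57, 2.35 and 1.82 CPM to 0.936, 0.817 and 0.703 CPM in PERK -/- cells and from 1.27, 1.4 and 2.25 CPM to 4.18, 4.66 and 6.07 CPM in WT cells. The log2 difference of Arc was -3.04 (SE 0.552, edgeR adjusted p = 0.000138). Amigo2, an adhesion molecule, changed by -1.64 (SE 0.286) in PERK -/- cells and by 0.94 (SE 0.226) in WT cells, a difference of -2.59. No groups overlapped within a genotype for either gene. The WT call of Arc was lost without replicate 3 of WT BtdCPU plus Tg or without replicate 1 or 2 of WT Tg, and that of Amigo2 without replicate 3 of WT BtdCPU plus Tg or without replicate 1 or 3 of WT Tg. Rgs4, a brake on G protein signalling, differed by -2.5 (SE 0.597). Its fall of -1.39 in PERK -/- cells was called and was lost without replicate 3 of either PERK -/- group, and its rise of 1.11 in WT cells was called only with the replicate block or without the filter on low counts.

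Among the genes carried by WT cells alone, Gadd45g, Egr1 and Tnfaip3 had the largest differences. Egr1, an immediate early transcription factor, rose in WT cells from 11.8, 10 and 8.44 CPM to 57.8, 38.8 and 53.7 CPM with BtdCPU. In PERK -/- cells it stayed between 1.82 and 2.87 CPM in all 6 libraries, and in DMSO it averaged 37.5 CPM in PERK -/- and 48.2 CPM in WT cells. BtdCPU therefore took Egr1 in thapsigargin-treated WT cells back to around its DMSO level, and the PERK -/- groups overlapped. The log2 difference was -2.5 (SE 0.351, edgeR adjusted p = 4.44e-06), with a WT change of 2.31 (SE 0.224). Tnfaip3, the NF-kB inhibitor A20, rose in WT cells from 25.5, 32.5 and 26.9 CPM to 106, 84.6 and 121 CPM and held 4.03 to 7.9 CPM in the PERK -/- libraries. Its log2 difference was -2.38 (SE 0.408, edgeR adjusted p = 6.87e-05). Without the filter on low counts and in the fit on the compared libraries, its PERK -/- change was called as well, so that it fell in the opposite class. Gadd45g, a relative of Gadd45a, rose in WT cells from 24.2, 29.4 and 27.6 CPM to 75.4, 61.3 and 143 CPM, and its change of -0.86 in PERK -/- cells missed the threshold at edgeR adjusted p = 0.0534. Without replicate 3 of WT BtdCPU plus Tg, the library at 143 CPM, the WT rise of Gadd45g was no longer called, and with the replicate block it was called in both genotypes in opposite directions.

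**Figure D2:**
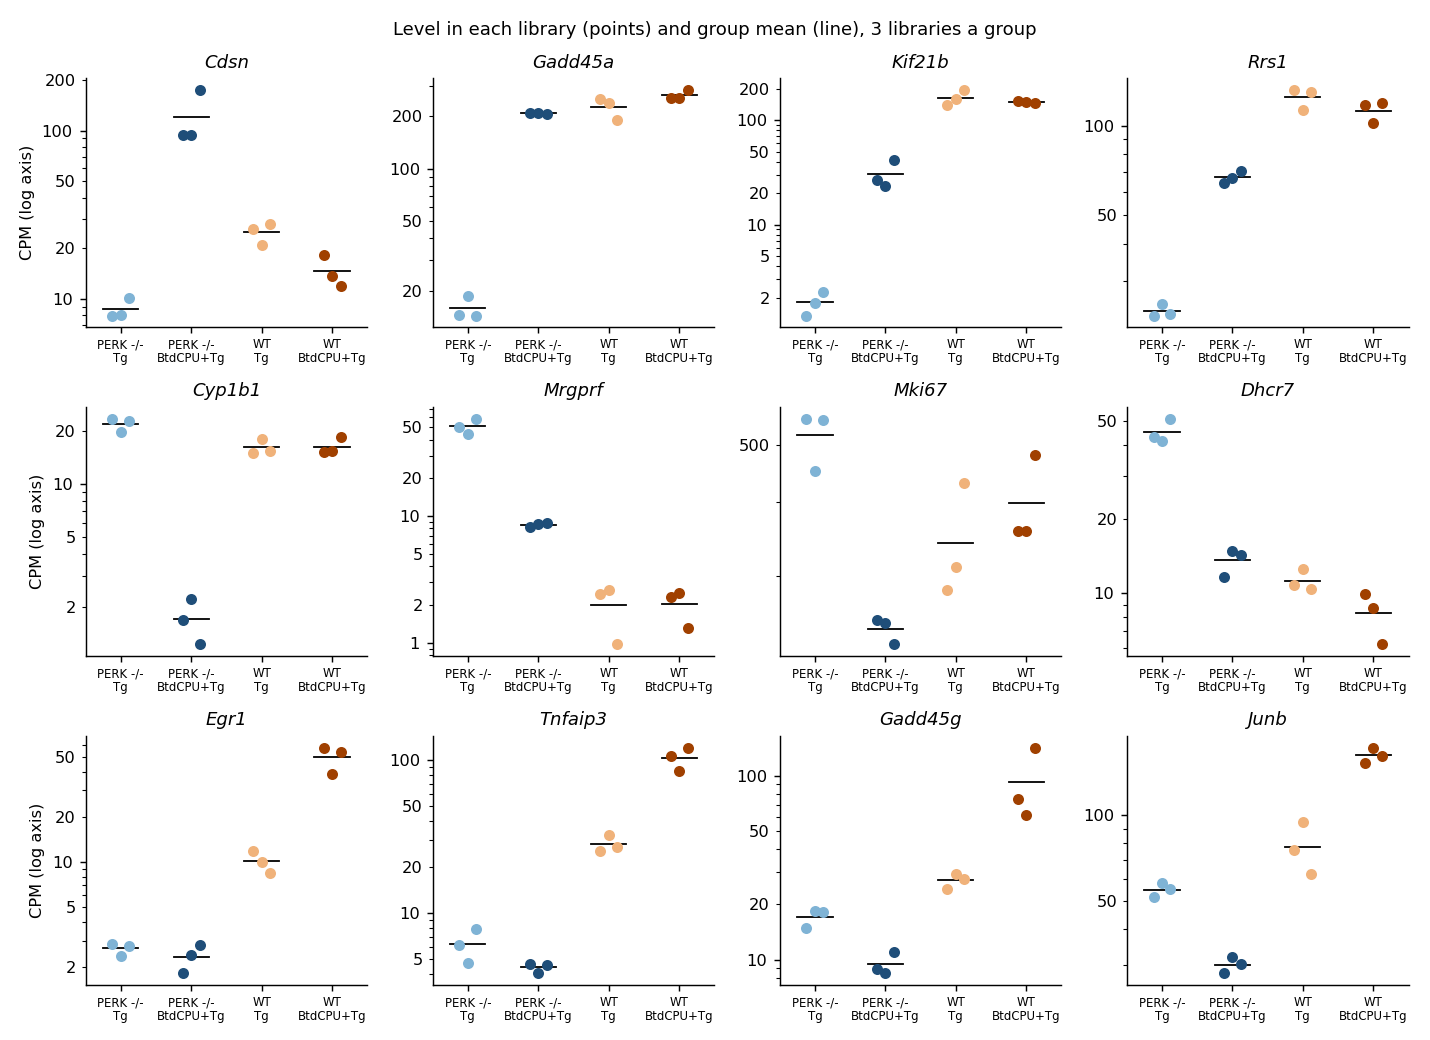
CPM on a log axis in each of 3 libraries a group (points) with the group mean (line), for 12 genes. In the upper row (Cdsn, Gadd45a, Kif21b, Rrs1) the PERK -/- libraries rise with BtdCPU, in the middle row (Cyp1b1, Mrgprf, Mki67, Dhcr7) they fall, and in the lower row (Egr1, Tnfaip3, Gadd45g, Junb) the WT libraries rise.

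The wider immediate early and ERK feedback list, genes that growth factor signalling switches on within minutes or that restrain it, held members of both signs. Of 29 tested, 5 had a positive and 11 a negative difference, against 10.7% and 10.1% of all tested genes. The median difference was -0.37 against -0.05 over all tested genes. In WT cells 9 rose and 0 fell, with a median of 0.28, while in PERK -/- cells 8 rose and 8 fell, with a median of -0.07. Over all tested genes 1.29% rose in WT cells, and 17.3% rose and 18.3% fell in PERK -/- cells. Junb fell in PERK -/- cells from 51.8, 57.9 and 55.4 CPM to 28, 31.9 and 30.1 CPM and rose in WT cells from 75.7, 94.5 and 62.6 CPM to 153, 173 and 161 CPM. Its log2 difference was -1.94 (SE 0.211, edgeR adjusted p = 7.73e-08), and no groups overlapped. Jun, the AP-1 subunit, rose by 0.75 (SE 0.129) in WT cells and changed by -0.29 in PERK -/- cells, which was called only with the replicate block or without replicate 2 of PERK -/- BtdCPU plus Tg. Klf2, a transcription factor that restrains inflammation, fell by -1.76 in PERK -/- cells alone, a difference of -1.92.

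Positive differences on the same list belonged to Myc, Etv5 and Dusp4, among others. Myc, the growth regulator, rose from 51.3, 52.4 and 49.6 CPM to 243, 229 and 256 CPM in PERK -/- cells, and WT libraries held 253 to 416 CPM throughout. The log2 difference of Myc was 1.99 (SE 0.265, edgeR adjusted p = 2.06e-06). Etv5, a transcription factor induced by ERK, rose by 2.12 (SE 0.232) in PERK -/- cells and changed by -0.05 in WT cells. Dusp4, a phosphatase that switches ERK off, rose in both genotypes, by 3.08 in PERK -/- cells (0.908 to 1.06 CPM to 7.68 to 9.66 CPM) and by 0.84 in WT cells (12.1 to 15.1 CPM to 15 to 29.1 CPM). The WT groups of Dusp4 overlapped, through replicate 2 of BtdCPU plus Tg at 15 CPM, and its WT call was lost without replicate 1 or 3 of that group or without any 1 WT Tg library.

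Of 26 tested chemokine and NF-kB genes, 3 had a positive and 9 a negative difference, against 10.7% and 10.1% of all tested genes. The median difference was -0.46, and it was -0.07 without replicate 2 of WT BtdCPU plus Tg and -0.24 without replicate 3 of WT Tg. All 6 called members among 8 regulators of the pathway had negative differences. Nfkbia, the inhibitor that holds NF-kB in the cytoplasm, fell from 69.7, 70.3 and 84.6 CPM to 37.6, 42 and 37.2 CPM in PERK -/- cells and rose from 37, 47.2 and 46.8 CPM to 79.9, 78 and 84.8 CPM in WT cells. Within each genotype the groups were apart, and the log2 difference was -1.83 (SE 0.216, edgeR adjusted p = 3.07e-07). Ptgs2, the prostaglandin synthase COX-2, had a positive difference of 1.75: it rose from 98.6 to 109 CPM to 293 to 362 CPM in PERK -/- cells and overlapped between the WT groups at 495 to 723 CPM. Of 27 tested interferon-stimulated genes, 1 had a positive and 2 a negative difference (11.1% called, against 20.8% of all tested genes). These counts were 8 and 4 without the filter on low counts and 8 and 5 with the replicate block, and single libraries moved the positive count between 0 and 2. Irf1, a transcription factor of that response, fell by -1.07 in PERK -/- cells, a difference of -1.54 (SE 0.26), and its WT change of 0.47 was called with the replicate block, without the filter and without replicate 2 of WT Tg.

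Ribosome biogenesis was the list outside the ISR with the highest share of positive differences. These genes make and process ribosomal RNA in the nucleolus. Of 39 tested members, 34 had a positive difference and 0 a negative one, against 10.7% and 10.1% of all tested genes, and the median difference was 1.02. In PERK -/- cells 36 rose and 0 fell, against 17.3% and 18.3% of all tested genes, with a median of 0.91. In WT cells none passed the threshold in either direction and the median was -0.12. Only 2.32% of all tested genes passed it there, so a count of 0 among 39 tells little. Leaving out any 1 of the 12 libraries gave 32 to 35 positive members. Among nucleolar factors 30 of 32 were called, and of 7 genes of RNA polymerase I, which transcribes ribosomal RNA, 4 were.

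Rrs1, an assembly factor of the large subunit, stood at 23, 25.1 and 23.3 CPM with Tg and at 63.9, 66.8 and 70.3 CPM with BtdCPU added in PERK -/- cells. WT libraries held 113 to 132 CPM and 102 to 119 CPM, which overlapped, and the log2 difference was 1.65 (SE 0.16, edgeR adjusted p = 1.19e-08). Nop56, a core protein of box C/D small nucleolar particles, rose from 252 to 316 CPM to 678 to 695 CPM in PERK -/- cells, into the WT range of 554 to 770 CPM. Gnl3 (nucleostemin), Rrp1b and Polr1b, a subunit of RNA polymerase I, differed by 1.47, 1.54 and 1.25. Ncl (nucleolin) differed by 0.95 (SE 0.174), from 1460 to 1860 CPM with Tg to 2830 to 3000 CPM with BtdCPU in PERK -/- cells.

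The level of the whole list, as mean log2 CPM relative to WT DMSO, was -0.47 ± 0.11 (SD, n = 3) in PERK -/- cells with Tg and 0.41 ± 0.01 with BtdCPU added. In PERK -/- cells with DMSO it was 0.39 ± 0.01, and in WT cells 0.57 ± 0.12 with Tg and 0.46 ± 0.09 with BtdCPU added. PERK -/- cells with Tg were thus the only one of these 5 groups below WT DMSO, and BtdCPU brought them to their own DMSO level. Of 76 tested proteins of the cytosolic ribosome, 4 (5.26%) had a positive difference, against 10.7% of all tested genes. Of these proteins 15 had one with the replicate block, 8 without replicate 1 of WT BtdCPU plus Tg or replicate 3 of WT Tg, and 2 without replicate 1 of WT Tg. Positive calls over all 16065 tested genes also rose with the block, from 1726 to 2464. The median difference of the 76 proteins was 0.16, with 0.08 under library-size scaling. It ranged from 0.043 (without replicate 1 of WT Tg) to 0.297 on leaving out 1 library. Rpl12 led them at 0.65 (SE 0.207, edgeR adjusted p = 0.0233), a call that was lost with library-size scaling and without replicate 3 of PERK -/- Tg.

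**Figure D3:**
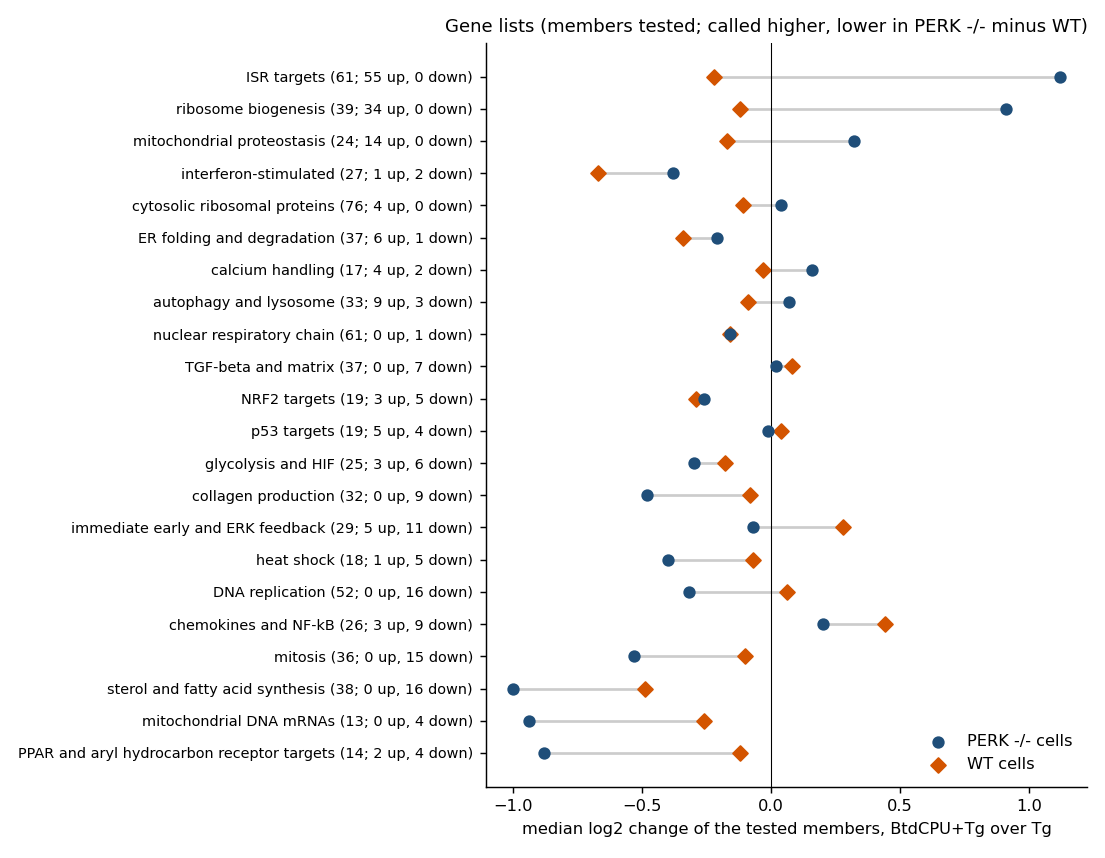
Median log2 change from Tg to BtdCPU+Tg of the tested members of 22 gene lists in PERK -/- cells (circles) and WT cells (diamonds), ordered by the median difference. Beside each name stand the number of members tested and the numbers with a positive and a negative difference. Ribosome biogenesis lies beside the ISR targets at the top, with medians of 0.91 and -0.12, and sterol synthesis near the bottom, with -1 and -0.49.

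Mitochondrial proteostasis genes, the chaperones, proteases and import proteins of the organelle, also had only positive calls. Of 24 tested, 14 had a positive difference and 0 a negative one, against 10.7% and 10.1% of all tested genes, with a median of 0.5. The chaperones contributed 6 of 8, the proteases 5 of 10 and the import proteins 3 of 6. Lonp1, the main matrix protease, rose from 300, 317 and 319 CPM to 579, 596 and 698 CPM in PERK -/- cells and fell from 578, 455 and 604 CPM to 436, 385 and 351 CPM in WT cells. No groups overlapped, the log2 difference was 1.48 (SE 0.164, edgeR adjusted p = 9.53e-08), and the WT call was lost without replicate 2 or 3 of WT BtdCPU plus Tg or replicate 1 or 3 of WT Tg. Dnaja3, a co-chaperone of the matrix, went from 80.6 to 82 CPM to 187 to 201 CPM in PERK -/- cells, a difference of 1.42. Hspa9 (mortalin) and Clpp, a matrix peptidase, differed by 0.92 and 0.99, and the replicate block also called a WT fall of -0.33 for Clpp.

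Of 61 nuclear-encoded subunits of the respiratory chain, 1.64% were called, against 20.8% of all tested genes. By edgeR 0 had a positive difference and 1, Uqcrh of complex III, a negative one of -1.05 (SE 0.325, edgeR adjusted p = 0.0195). With the replicate block 5 were positive and 4 negative. The Uqcrh call was lost without replicate 3 of PERK -/- BtdCPU plus Tg, replicate 2 of PERK -/- Tg, replicate 2 of WT BtdCPU plus Tg or replicate 3 of WT Tg. All but 1 of the 13 mRNAs encoded by mitochondrial DNA fell in PERK -/- cells, against 18.3% of all tested genes. Their median change there was -0.94, and their median difference was -0.67. The difference was called, as negative, for 4 of them (30.8%, against 10.1% of all tested genes), a count that became 8 with the replicate block and 11 without the filter. It was 0 without replicate 2 of PERK -/- Tg or without replicate 1 or 2 of WT BtdCPU plus Tg, 1 without replicate 1 or 3 of PERK -/- BtdCPU plus Tg, replicate 1 of PERK -/- Tg or replicate 2 of WT Tg, 2 without replicate 3 of WT Tg, and 6 without replicate 3 of WT BtdCPU plus Tg. ND2, a subunit of complex I, fell from 1660, 1800 and 1240 CPM to 607, 764 and 625 CPM in PERK -/- cells, while WT libraries with BtdCPU held 1690, 1670 and 791 CPM. Its log2 difference of -1.32 (SE 0.393, edgeR adjusted p = 0.0152) was lost in the same 3 fits that left 0 members.

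Cell division genes carried negative differences. Of 36 tested mitosis genes, 15 had a negative difference and 0 a positive one, with a median of -0.47, and of 52 DNA replication genes 16 were negative and 0 positive, with a median of -0.45. Over all tested genes 10.1% were negative and 10.7% positive, with a median of -0.05. In PERK -/- cells 29 mitosis and 27 replication genes fell, against 18.3% of all tested genes. In WT cells no mitosis gene passed the threshold and 1 replication gene rose, against 2.32% of all tested genes that changed there. Mki67, the proliferation marker Ki-67, fell from 554, 451 and 551 CPM to 253, 250 and 230 CPM in PERK -/- cells, and its WT groups overlapped at 284 to 431 CPM and 357 to 480 CPM. The log2 difference was -1.31 (SE 0.232, edgeR adjusted p = 0.000107). Ccnb2 (cyclin B2) and Birc5 (survivin) differed by -0.77 and -0.74. Clspn, the checkpoint adaptor claspin, fell from 97 to 102 CPM to 45 to 56.6 CPM in PERK -/- cells and held 25.6 to 38 CPM in WT cells, a difference of -1.24. Mcm5, a subunit of the replicative helicase, and E2f8, a repressor of cell cycle genes, differed by -0.63 and -0.94.

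The starting levels of these lists differed between genotypes. The mitosis list stood at 0.35 ± 0.07 in PERK -/- cells with Tg and at -0.38 ± 0.12 in WT cells with Tg (mean log2 CPM relative to WT DMSO, SD, n = 3). With BtdCPU it stood at -0.19 ± 0.12 and -0.46 ± 0.13. Without replicate 3 of PERK -/- BtdCPU plus Tg, 9 mitosis and 7 replication genes remained negative. Over all tested genes 1130 were negative in that fit, against 1617 in the main fit. The replication count was 10 without replicate 2 of PERK -/- Tg, replicate 1 of WT BtdCPU plus Tg or replicate 2 of WT Tg, and 25 with the replicate block.

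Sterol and fatty acid synthesis genes fell in both genotypes, and further in PERK -/- cells. Of 38 tested members 32 fell in PERK -/- cells, with a median change of -1, and 14 fell in WT cells, with a median of -0.49. The shares of all tested genes that fell were 18.3% and 1.02%. The difference was negative for 16 and positive for 0, against 10.1% and 10.7% of all tested genes. Its median was -0.47, and 5 of the 16 were called in both genotypes in the same direction. Most called members, 12, were enzymes of the 20 in sterol synthesis. Hmgcs1, which makes the HMG-CoA of the mevalonate pathway, fell from 456, 392 and 509 CPM to 100, 125 and 102 CPM in PERK -/- cells and from 240, 270 and 251 CPM to 117, 133 and 99.4 CPM in WT cells. The libraries of both genotypes ended in the same range, and the log2 difference was -0.93 (SE 0.259, edgeR adjusted p = 0.00933). Dhcr7, the last enzyme of cholesterol synthesis, fell from 41.5 to 51.3 CPM to 11.6 to 14.9 CPM in PERK -/- cells, with a WT change of -0.44 that missed the threshold. Hsd17b7, another sterol enzyme, differed by -1.23.

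The level of the sterol list was -0.16 ± 0.09 in PERK -/- cells with Tg and -0.67 ± 0.04 in WT cells with Tg, and -1.09 ± 0.14 and -1.14 ± 0.14 with BtdCPU added (SD, n = 3). The negative differences of this list thus began from a higher level in PERK -/- cells and ended at levels whose libraries overlapped. The count of 16 depended on single libraries. It was 6, 7 or 7 without replicate 3 of PERK -/- Tg, replicate 1 or replicate 3 of PERK -/- BtdCPU plus Tg. Negative calls over all tested genes were 1096, 1174 and 1130 in these fits, against 1617 in the main fit. The list count was 8 or 7 without replicate 1 or 2 of WT BtdCPU plus Tg. It was 10 without replicate 2 of PERK -/- Tg or replicate 1 of WT Tg.

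**Figure D4:**
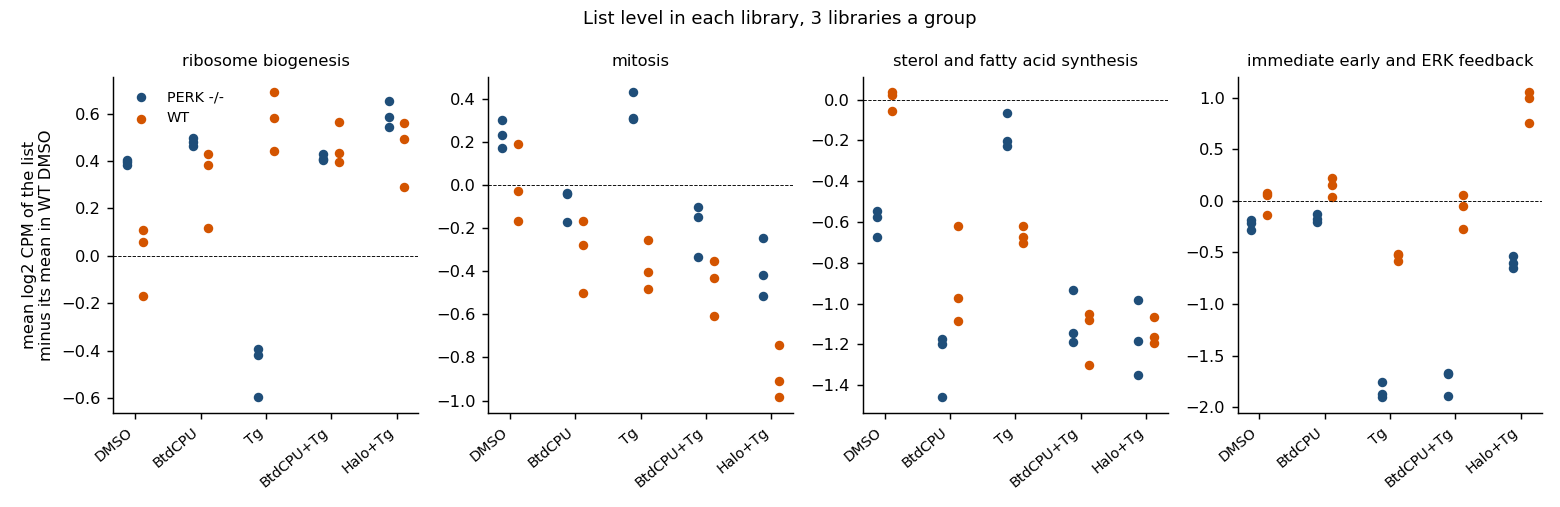
Mean log2 CPM of 4 gene lists in each library, relative to the mean of WT DMSO, for PERK -/- cells (blue) and WT cells (orange) under 5 treatments, 3 libraries each. Ribosome biogenesis drops in PERK -/- cells with Tg alone and is back at the DMSO level with BtdCPU+Tg, the mitosis and sterol lists are higher in PERK -/- than in WT cells with Tg, and the immediate early list rises from Tg to BtdCPU+Tg in WT cells.

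On the TGF-beta and matrix list the calls were mostly in ligands and receptors. Of 37 tested members of the TGF-beta list, 7 had a negative difference and 0 a positive one (4 positive with the replicate block), against 10.1% and 10.7% of all tested genes. The list's median was -0.03 and changed sign on leaving out single libraries. Of the 7 called, 5 were among the 7 ligands and receptors and 1 among the 18 matrix genes. Tgfb3, a ligand, fell from 34.7, 31.8 and 42.2 CPM to 11.2, 13.5 and 10.3 CPM in PERK -/- cells and held 10.6 to 18.4 CPM in WT cells. The responses differed by -1.91 on the log2 scale (SE 0.273, edgeR adjusted p = 5.61e-06). The PERK -/- libraries with BtdCPU thus lay within or just under the WT range. Tgfb2 and the receptors Tgfbr1 and Tgfbr2 differed by -1.32, -0.81 and -1.31, and Tgfbr2 also rose by 0.45 in WT cells with the replicate block. The PERK -/- fall of Tgfb2 missed the threshold without replicate 2 of PERK -/- BtdCPU plus Tg. Thbs1 (thrombospondin 1), which activates latent TGF-beta, fell from 322 to 609 CPM to 146 to 162 CPM in PERK -/- cells, a difference of -1.96.

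Of 32 collagen production genes, 9 had a negative and 0 a positive difference, against 10.1% and 10.7% of all tested genes. The median was -0.21 and ran from -0.26 to -0.079 (without replicate 1 of WT BtdCPU plus Tg) on leaving out 1 library, with -0.11 without replicate 3 of PERK -/- Tg and -0.14 without replicate 2 of PERK -/- BtdCPU plus Tg or of WT Tg. In PERK -/- cells 19 fell and 1 rose, against 18.3% and 17.3% of all tested genes, and in WT cells 4 fell, against 1.02%. Plod2, which hydroxylates collagen lysines, fell from 44.5 to 48.5 CPM to 21.1 to 23.5 CPM in PERK -/- cells, a difference of -0.99, and Col6a1, a collagen VI chain, differed by -0.74. Loxl2, a collagen crosslinking oxidase, fell from 14.8, 15.1 and 15 CPM to 7.57, 8.63 and 5.73 CPM in PERK -/- cells, far below the 97 to 111 CPM of all WT libraries, a difference of -1.08. The count of 9 became 4 without replicate 3 of PERK -/- Tg and 5 without any 1 of the PERK -/- BtdCPU plus Tg libraries or replicate 1 of WT BtdCPU plus Tg. Negative calls over all tested genes also dropped in these fits, from 1617 to between 1096 and 1298. Cd248 and Ackr3, a stromal membrane protein and a chemokine-scavenging receptor, fell in both genotypes: Cd248 by -1.81 and -0.64, Ackr3 by -1.84 and -0.86. The WT call of Cd248 was lost without replicate 2 or 3 of WT BtdCPU plus Tg or any 1 WT Tg library. The difference of Ackr3, -0.97 (SE 0.266), was lost without replicate 2 of WT BtdCPU plus Tg (-0.69), and its WT call without replicate 1 or 3 of that group or replicate 2 or 3 of WT Tg.

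Glycolysis and HIF targets held calls of both signs. Of 25 tested, 3 had a positive and 6 a negative difference, against 10.7% and 10.1% of all tested genes. Hk2, which phosphorylates glucose, rose from 19.9, 20.9 and 26.1 CPM to 99.9, 86.4 and 120 CPM in PERK -/- cells and overlapped between WT groups at 53.9 to 88.9 CPM. Its responses differed by 2.2 (SE 0.325, edgeR adjusted p = 8.27e-06). Ndrg1, a stress-responsive gene that HIF also induces, rose from 31.3 to 33.9 CPM to 130 to 160 CPM in PERK -/- cells, a difference of 2.14. In contrast, Bnip3, a mitophagy receptor, fell from 24.7, 29.6 and 27.7 CPM to 7.81, 5.66 and 8.05 CPM in PERK -/- cells and held 4.24 to 5.89 CPM in WT cells, and its responses differed by -1.76. Pdk1, which restrains pyruvate oxidation, and Ankrd37 fell in the same way, with differences of -1.35 and -2.87. BtdCPU thus lowered these 3 HIF targets in PERK -/- cells toward the WT level.

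Among 14 tested PPAR and aryl hydrocarbon receptor targets, 2 had a positive and 4 a negative difference, against 10.7% and 10.1% of all tested genes. Acot2 and Acot1, near-identical acyl-CoA thioesterases between which reads may be divided uncertainly, differed by 2.98 and 2.59. Acot2 rose from 5.88, 7.64 and 3.31 CPM to 35.9, 34.8 and 35.6 CPM in PERK -/- cells, against 32.8 to 51.5 CPM in WT cells. Pdk4 and Cpt1a, both of which favour fatty acid oxidation, fell in PERK -/- cells alone, with differences of -1.62 and -1.25. Members of this list that PPAR is known to induce together thus moved in opposite directions.

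Among 37 ER folding and degradation genes, 6 had a positive and 1 a negative difference, so that 18.9% were called against 20.8% of all tested genes. The positive count was 11 with the replicate block, and 10 without the filter or without replicate 2 of WT Tg. Atf6, an ER stress sensor, rose from 33.1, 32.1 and 34 CPM to 89.4, 82.9 and 103 CPM in PERK -/- cells, below the 165 to 215 CPM of WT cells. Its responses differed by 1.53 (SE 0.232, edgeR adjusted p = 1.32e-05). Hspa5, the chaperone BiP, rose from 5910 to 6360 CPM to 9610 to 12000 CPM in PERK -/- cells and changed by -0.39 in WT cells, called there only with the replicate block or without the filter, a difference of 1.2. Herpud1, a factor of ER-associated degradation, differed by 1.31. Derl1, of the same pathway, differed by 0.46 through a WT fall of -0.3, a WT call that was lost in 8 of 18 alternative fits, among them those without replicate 2 or 3 of WT BtdCPU plus Tg or any 1 WT Tg library. Hspa13 had the negative difference, -0.57 (SE 0.165), lost without replicate 3 of PERK -/- BtdCPU plus Tg or replicate 2 of WT BtdCPU plus Tg, and its WT fall of -0.25 was also called with the replicate block.

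Calcium handling genes included 4 positive and 2 negative differences among 17, against 10.7% and 10.1% of all tested genes, and 10 of the 12 fits without 1 library left 1 negative member. Itpr2, an ER calcium release channel, differed by 0.97, Atp2a2, the pump that thapsigargin blocks, by 0.55, and Atp2b4, a calcium pump of the plasma membrane, by -1.53. The PERK -/- rise of Atp2a2, 0.3, was not called without replicate 3 of PERK -/- BtdCPU plus Tg, and the replicate block also called its WT fall of -0.25.

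The remaining lists held calls of both signs, as did all tested genes, at 10.7% positive and 10.1% negative. Of 19 NRF2 targets, 3 were positive and 5 negative, and leaving out any 1 library other than replicate 3 of WT BtdCPU plus Tg or replicate 1 of WT Tg left 2 or 3 negative members. The positive count was 1 without replicate 3 of PERK -/- BtdCPU plus Tg, replicate 2 of PERK -/- Tg or replicate 1 or 3 of WT Tg, and 5 with the replicate block. Hmox1 (heme oxygenase 1) rose from 92.5, 110 and 116 CPM to 347, 350 and 428 CPM in PERK -/- cells, into the WT range of 234 to 429 CPM. The responses differed by 2.17 (SE 0.231, edgeR adjusted p = 5.16e-08). Nqo1, an antioxidant reductase, fell in both genotypes, by -1.37 and -0.64, and its WT call was lost without replicate 3 of WT BtdCPU plus Tg. Osgin1 differed by -0.93. Of 18 heat shock genes, 1 was positive, the co-chaperone Fkbp4 (0.64), and 5 were negative, led by Dnajb4 (-1.16). The negative count was 9 with the block. It was 1 without replicate 2 of either Tg group or replicate 1 or 3 of WT BtdCPU plus Tg, 2 without replicate 2 of that group or any 1 PERK -/- BtdCPU plus Tg library, and 3 without replicate 1 of PERK -/- Tg. The block also called the WT fall of Fkbp4.

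Of 19 p53 targets, 5 were positive, including Gadd45a and the exonuclease Aen (1.4), and 4 negative, led by Sesn1 (-0.94), against 10.7% and 10.1% of all tested genes. Of the 12 ways of leaving out 1 library, 11 left 1 or 2 negative members, and the exception was replicate 2 of WT Tg. Of 33 autophagy and lysosome genes, 9 were positive and 3 negative, against the same shares of all tested genes. With library-size scaling the counts were 4 and 5, and the block gave 5 negative members. The positive count was 5 without the filter or without replicate 1 of WT Tg, and the negative count 1 without replicate 3 of WT BtdCPU plus Tg and 5 without replicate 3 of WT Tg. Sqstm1, the autophagy receptor p62, rose from 663 to 715 CPM to 1600 to 1830 CPM in PERK -/- cells, toward the 1710 to 2090 CPM of WT cells, a difference of 1.37. Ctsl, a lysosomal protease, differed by 0.67, with a WT fall of -0.27 called only with the block. Tfeb, a master regulator of lysosomal genes, differed by -1.05, a call lost without replicate 3 of WT BtdCPU plus Tg, at -0.66, and its PERK -/- fall was not called without replicate 3 of PERK -/- BtdCPU plus Tg or replicate 1 or 2 of PERK -/- Tg.

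Among the genes that passed the threshold in neither genotype, Spsb1, Rims2 and Per3 had the largest differences. Spsb1 fell by -0.67 in PERK -/- cells and rose by 0.83 in WT cells without either change being called, a difference of -1.5 (SE 0.388, edgeR adjusted p = 0.00536), and with the replicate block both changes were called. Without replicate 2 of PERK -/- BtdCPU plus Tg or replicate 1 of PERK -/- Tg its PERK -/- fall was called. The differences of Rims2 (-1.39, SE 0.492) and Per3 (-1.25, SE 0.439) were lost on leaving out 9 and 8 of the 12 libraries in turn, with Per3 at -0.64 without replicate 3 of WT BtdCPU plus Tg. With the replicate block both changes of Rims2 and the PERK -/- fall of Per3 were called.

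For orientation, the ISR targets had the largest share of positive differences: 55 of 61 tested, with 0 negative, against 10.7% and 10.1% of all tested genes, and a median of 1.38. Fgf21, a stress hormone, Ppp1r15a, which directs the phosphatase of eIF2 alpha, and Ddit3, the transcription factor CHOP, led them. Ddit3 rose from 47.4, 60.3 and 35.8 CPM to 374, 413 and 400 CPM in PERK -/- cells, where WT libraries held 309 to 381 CPM with Tg and 181 to 285 CPM with BtdCPU. Its difference was 3.55, against 3.69 for Ppp1r15a and 4.37 for Fgf21.

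The difference can also be read as a change in the gap between the genotypes, since it equals the gap with BtdCPU minus the gap with Tg alone. These comparisons share the same 12 libraries and are given side by side, not as independent results. Genes grouped by the sign of the difference must shift their gap in that direction, so the direction of the shift adds no support. Shares of all tested genes that lost or gained a called gap were not computed. With Tg, 10537 genes (65.6%) differed between PERK -/- and WT cells, and with BtdCPU added 9690 (60.3%). Outside the ISR list, the 1671 genes with a positive difference had a median gap (PERK -/- minus WT) of -0.73 with Tg and of 0.05 with BtdCPU added. For 1380 of them the gap with Tg was called, and 636 of those no longer had a called gap with BtdCPU. For 282 a gap was called only with BtdCPU. The gap was smaller with BtdCPU for 1207 and larger for 464. For 169 the gap was called under both treatments with opposite signs, as for Cdsn (-1.52 and 3.05), Angptl6 (-2.16 and 1.73) and Lonp1 (-0.81 and 0.68).

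The 1617 genes with a negative difference had a median gap of 0.67 with Tg and of -0.25 with BtdCPU added. For 504 a gap called with Tg was no longer called with BtdCPU, and for 356 a gap was called only with BtdCPU. Bnip3 (2.36 and 0.6), Cpt1a (1.6 and 0.35), Mrgprf (4.67 and 2.07) and Dhcr7 (2.01 and 0.72) had narrower gaps with BtdCPU. Egr1 (-1.92 and -4.42), Tnfaip3 (-2.18 and -4.56), Pdk4 (-4.41 and -6.03) and Loxl2 (-2.78 and -3.85) had wider ones, since PERK -/- cells were already lower. Cyp1b1 opened a gap that was small before, 0.45 with Tg and -3.26 with BtdCPU.

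**Figure D5:**
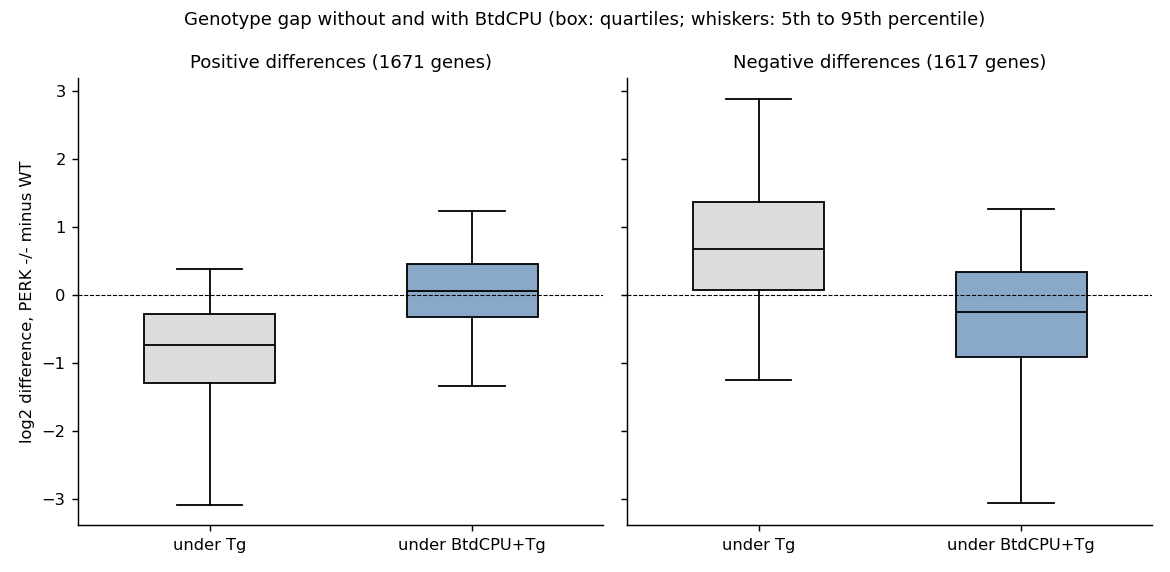
Log2 difference between PERK -/- and WT cells with Tg and with BtdCPU+Tg, for genes outside the ISR list with a positive (1671) or negative (1617) difference (boxes: quartiles, whiskers: 5th to 95th percentile). The median moves from -0.73 to 0.05 for positive and from 0.67 to -0.25 for negative differences, directions that the grouping of the genes fixes.

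BtdCPU alone against DMSO, which shares no library with the comparison above, was the next comparison. The response differed between PERK -/- and WT cells for 32 genes (0.199%), 6 with a positive (0.0373%) and 26 with a negative difference (0.162%), and 1626 genes had an unadjusted p below 0.05. With the replicate block 587 genes differed, and without replicate 2 of WT BtdCPU 845 did. BtdCPU alone changed 577 genes (3.59%) in PERK -/- cells, 2.55% of all tested upward and 1.04% downward. In WT cells it changed 3571 (22.2%), 12.9% upward and 9.31% downward. Of the 1507 genes outside the ISR list with a positive difference carried by PERK -/- cells under Tg, 240 rose and 0 fell with BtdCPU alone in PERK -/- cells. In WT cells 797 of them rose and 8 fell. Of the 1328 carried negative ones, 97 fell and 0 rose in PERK -/- cells, and 468 fell and 19 rose in WT cells.

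Gene by gene, BtdCPU alone raised Gadd45a in both genotypes, by 2.95 in PERK -/- and 4.34 in WT cells, and Cdsn by 2.58 and 3.82. Hmox1, Lonp1 and Sqstm1 rose in both as well, by 1.13 and 1.71, by 0.63 and 0.83, and by 1 and 1.4. Myc rose by 0.8 and 1.57. Atf6 rose by 1.51 in WT cells, and its change of 0.51 in PERK -/- cells missed the threshold. Sterol synthesis fell in both genotypes, for example Hmgcs1 by -1.37 in PERK -/- and -1.34 in WT cells, and of the list of 38, 27 and 30 members fell. Of 39 ribosome biogenesis genes, 1 rose with BtdCPU alone in PERK -/- and 15 in WT cells. Egr1 (-0.54 and -0.36) and Tnfaip3 (-0.24 and -0.32), which BtdCPU raised in WT cells under Tg, did not pass the threshold with BtdCPU alone in either genotype. Across the 16004 genes outside the ISR list, the PERK -/- response to BtdCPU over Tg and that over DMSO had a Pearson r of 0.316 and a Spearman rho of 0.478. The 2 genotype differences had an r of -0.07 and a rho of -0.166. Genes are not independent replicates, and these values are descriptions.

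The last comparison tested whether the genotype difference was unequal between BtdCPU and halofuginone. It set the 2 combinations with Tg directly against each other in both genotypes, so that the Tg libraries cancel. This difference was called for 1458 genes (9.08%), 859 positive (5.35%) and 599 negative (3.73%). With the replicate block it was called for 3285, and without replicate 3 of WT halofuginone plus Tg for 971. With library-size scaling 37.7% of the called genes were positive, against 58.9% here. The genes below were chosen by their values in the main difference. That difference uses the same BtdCPU plus Tg libraries, so their values here are not independent of it. Cyp1b1 had a difference of -2.98 (edgeR adjusted p = 4.41e-08), so its fall in PERK -/- cells relative to WT cells was greater with BtdCPU than with halofuginone. Egr1 (-2.14), Junb (-1.45), Irf1 (-1.25), Tnfaip3 (-1.21) and ND2 (-1.42) were likewise lower, relative to WT cells, in the BtdCPU combination. Dusp4 (1.62), Ndrg1 (1.61), Sqstm1 (0.81), Ctsl (0.8) and Col6a1 (0.63) were higher.

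For many genes with large differences the 2 compounds could not be separated. Gadd45a (0.23), Cdsn (-0.53), Kif21b (-0.5), Hk2 (-0.48), Mrgprf (0) and Rrs1 (-0.14) did not pass the threshold in the direct comparison. Of 39 ribosome biogenesis genes 1 was called, and of 24 mitochondrial proteostasis genes 0, with 0 of 36 mitosis genes positive and 3 negative. These p-values do not show that the compounds acted alike. Other lists held more calls: 10 of 33 autophagy and lysosome genes, 6 of 18 heat shock genes, 6 of 37 TGF-beta genes and 5 of 32 collagen genes were positive, against 5.35% of all genes. Negative calls were made for 7 of 13 mRNAs encoded by mitochondrial DNA, 7 of 26 chemokine and NF-kB genes, 7 of 37 ER genes, 4 of 19 NRF2 targets and 4 of 27 interferon-stimulated genes, against 3.73%. Of 29 immediate early genes 5 were positive and 5 negative.

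Several genes named here overlap another tested gene in the RefSeq annotation, so their counts may include reads of it: Amigo2, Angptl6, Ankrd37, Ddit3, Dnajb4, Gadd45a, Gnl3, Hspa5, Itpr2, Loxl2, ND2, Nop56, Per3, Plod2 and Rpl12.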

How the data were processed

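The submitters' table holds estimated counts per gene, deposited by the authors, most of them whole numbers (2.69% of values above 0 were not), with totals that differ between libraries. GRCm39 and DESeq are named in the submitters' processing notes. The aligner, the counting tool and its use of strand are not given in the sources used here. Per the labels, total RNA was made into strand-specific libraries. Among the deposited values 0.025 stands for a count of 0 (50.6% of values). Entries named by dates (27, holding 0.206% to 0.278% of a library) were left out, the 39 symbols found on several entries were summed, and counts were rounded.

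Genes were kept by filterByExpr, scaled by TMM and tested with edgeR 4.0.16 (R 4.3.3) in a robust quasi-likelihood fit with 12 group means over 36 libraries, with 24 residual degrees of freedom. Benjamini-Hochberg adjustment ran over the 16065 genes within each contrast, with calls below 0.05. CPM are TMM-scaled, except those of the cell type markers, which are scaled by library totals alone. List levels are log2 CPM with a prior count of 2. No libraries of a group agreed within sampling noise (chi-square at least 9.66 per degree of freedom). The same-numbered Tg and BtdCPU plus Tg libraries deviated together (correlations of deviations 0.332, 0.354 and 0.506 in PERK -/-, 0.324, 0.624 and 0.709 in WT), and the block takes the numbers to pair them. Replicate 1 of WT Tg correlated more with a BtdCPU plus Tg library of another number. The main fit, and all values given without mention of the block, leave this pairing out. Alternatives were edgeR RLE factors, library-size scaling, no low-count filter, fits on the compared libraries, the block, DESeq2 1.42.0 and leaving out each library. BtdCPU alone against DMSO within each genotype was added after seeing the data. Counts without molecular identifiers are not independent molecules.

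The comparison and the gene lists were chosen with earlier results of these data known, and the lists support nothing independently. Genes were named by a rule: outside the ISR list, called, average log2 CPM of at least 2, more than 3 counts in each of 12 libraries and no overlap of CPM in the genotype with the larger change. Of these, the 8 largest positive and 8 largest negative differences, the 3 largest of each carrier class other than PERK -/- alone, the extreme called members of each list, and 3 ISR genes were taken. Other list members (Nop56, Junb, Myc, Hmgcs1 and the like) were chosen after their values were seen. Promoters were matched by symbol for 71 of 92 named genes.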

Additional observations from a re-analysis of the deposited data

Results flagged for a closer look

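The genotypes responded differently, by the test of the difference itself, for 3343 genes in BtdCPU over thapsigargin, for 32 in BtdCPU over DMSO and for 1458 when BtdCPU was set against halofuginone under thapsigargin. Among named genes, those called in opposite directions in the genotypes had log2 differences of 3.89 (Angptl6), 3.88 (Avil), 1.48 (Lonp1), -1.83 (Nfkbia), -1.94 (Junb), -2.59 (Amigo2) and -3.04 (Arc). Groups of 3 libraries are too small for a test of single outlying libraries.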

How the results depend on the processing

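Of 140 counts recomputed under the alternatives, 114 were within 1.5 times the reported count, and of 1656 values for named genes 1626 kept their direction and side of the threshold, 30 lost the call and none reversed. The number of genes called in WT cells was 813 without the filter, 2079 with the replicate block, 23 in a fit on the compared libraries and 809 with DESeq2, and 41 to 331 on leaving out 1 library. Those carried by WT cells alone numbered 146, 424, 4 and 171 in the same fits, 163 by size, and 11 to 87 on leaving out 1 library. For BtdCPU over DMSO the difference was called for 314, 587, 2 and 156 genes, and for 14 to 845 on leaving out 1 library. BtdCPU against halofuginone gave 3285 with the block and 971 to 1542 on leaving out 1 library. Of 396 list medians 337 stayed within the spread between replicates, 51 moved beyond it and 8 reversed. On leaving out 1 library the median changed sign for interferon-stimulated genes (-0.095 to 0.58), the nuclear respiratory chain (-0.079 to 0.08), NRF2 targets (-0.113 to 0.142), the TGF-beta list (-0.156 to 0.124) and p53 targets (-0.072 to 0.072). The fit on the compared libraries and the fits leaving out a library rest on fewer samples. The cause of the other shifts was not tested. Beyond the calls given above, the replicate block, which pairs same-numbered libraries within a genotype, changed the call of no named gene in the difference or the carrying genotype.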
